A study of Rattus norvegicus with 7 samples.

Results

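The genes described here mark melanocytes, the pigment cells of skin and hair. They were chosen by symbol as a list of 10 (Tyr, Tyrp1, Dct, Pmel, Mlana, Mitf, Mc1r, Slc45a2, Oca2 and Sox10). Of these, 8 of the 17246 genes in the deposited tables are described, and Dct and Mc1r were not analysed here. RNA was sequenced from meibomian glands, the lipid-secreting glands of the eyelid, of wild-type female Sprague-Dawley rats aged 3 months. There were 4 control libraries from rats with no treatment and 3 libraries from rats exposed to ultraviolet B (UVB). The labels state that the upper lid was shaved and given 300 mJ/cm2 in a session of 5 min a day for 5 days. The labels attach this text to every sample, so whether controls were shaved is not known, and the time from the last exposure to dissection is not given. The labels do not say that each library came from a separate animal, so p-values measure the spread between these libraries, which may be technical in part. Letters name the libraries (a to d in the controls, a to c in the UVB group) and pair nothing.

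Melanocytes make melanin inside melanosomes. Tyrosinase (Tyr) starts the pathway from tyrosine, the related enzymes Tyrp1 and Dct act after it, Pmel forms the fibrils on which pigment is laid down, and the transporters Slc45a2 and Oca2 set the melanosome's inner chemistry. The transcription factor MITF switches these genes on, SOX10 acts above MITF, and the melanocortin receptor Mc1r links the cells to hormone released by skin under ultraviolet light. Sprague-Dawley rats are albino through a missense change in Tyr, so their melanocytes are present but make no melanin. In the eyelid such cells would be in the epidermis and in the hair bulbs of lashes and lid hair.

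MITF is known to bind the M-box, an E-box written TCATGTG, in promoters of pigment genes, so the promoters that hold these letters are shown before the values. RefSeq promoters of build GRCr8 were found for 8 of the 10 genes, and none for Slc45a2 or Sox10. They come from the BN/NHsdMcwi reference strain, not from these animals. The window ran from 250 to 21 bases before the start of the gene. TCATGTG, on either strand, was in 4 of the 8 windows (Tyr, Tyrp1, Dct and Mlana), and in 2.87% of all 33469 promoters. The shorter CATGTG, which lies inside it, was in 11.3% of all promoters. The related E-box CACGTG, which reads the same on both strands, was in 0 of the 8 and in 5.07% of all. The promoters of the analysed genes with a match follow, 5′ to 3′ on the strand of the gene, with TCATGTG or CATGTG, or their reverse, in capitals.
Tyr: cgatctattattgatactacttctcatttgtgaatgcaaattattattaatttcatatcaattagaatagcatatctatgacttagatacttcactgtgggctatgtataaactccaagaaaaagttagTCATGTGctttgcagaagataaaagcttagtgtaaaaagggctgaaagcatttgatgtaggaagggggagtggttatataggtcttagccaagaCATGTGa
Tyrp1: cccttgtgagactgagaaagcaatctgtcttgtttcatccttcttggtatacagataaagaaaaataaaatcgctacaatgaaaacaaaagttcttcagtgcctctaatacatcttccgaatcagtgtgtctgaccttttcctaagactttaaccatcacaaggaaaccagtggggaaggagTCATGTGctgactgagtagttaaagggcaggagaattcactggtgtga
Mlana: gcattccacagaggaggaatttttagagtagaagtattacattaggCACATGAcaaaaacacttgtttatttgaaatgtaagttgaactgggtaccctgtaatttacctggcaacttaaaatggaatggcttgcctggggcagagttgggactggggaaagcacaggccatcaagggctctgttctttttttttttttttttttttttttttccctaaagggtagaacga
The Tyr window is chr1:150622878-150623107, minus strand, the Tyrp1 window chr5:100326875-100327104, plus strand and the Mlana window chr1:236882825-236883054, plus strand. Tyr holds TCATGTG at 121 bases before the start, and a further CATGTG at 27 bases. Tyrp1 holds it at 68 bases, and Mlana holds the reverse, CACATGA, at 204 bases. A match is a description of the letters and not a measured binding site.

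Melanocyte genes were lower in the UVB glands. With edgeR's quasi-likelihood test, Slc45a2, Tyr, Mlana and Mitf fell, 4 of the 8 genes, against 6.74% of all 13709 genes tested that were called lower. No gene of the 8 was called higher, where 6.30% of all genes tested were. All 8 passed the filter on low counts, and all 8 had a log2 fold change below 0, with a median of -0.70 against -0.0058 over all genes tested. Every UVB library was below every control for 6 of the 8, where 13.8% of all genes tested showed that. The 8 genes also varied together between controls, so these counts are not separate results. Control d stood at 100% to 144% of the control mean over the 8, and control a at 68.5% to 89.8% for all but Oca2 (121%). Without UVB b, 0 of the 8 passed in edgeR, although 5 had an unadjusted p under 0.05, and without UVB a only Slc45a2 did. In bulk tissue, fewer melanocytes and less RNA per melanocyte cannot be told apart.

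**Figure D1:**
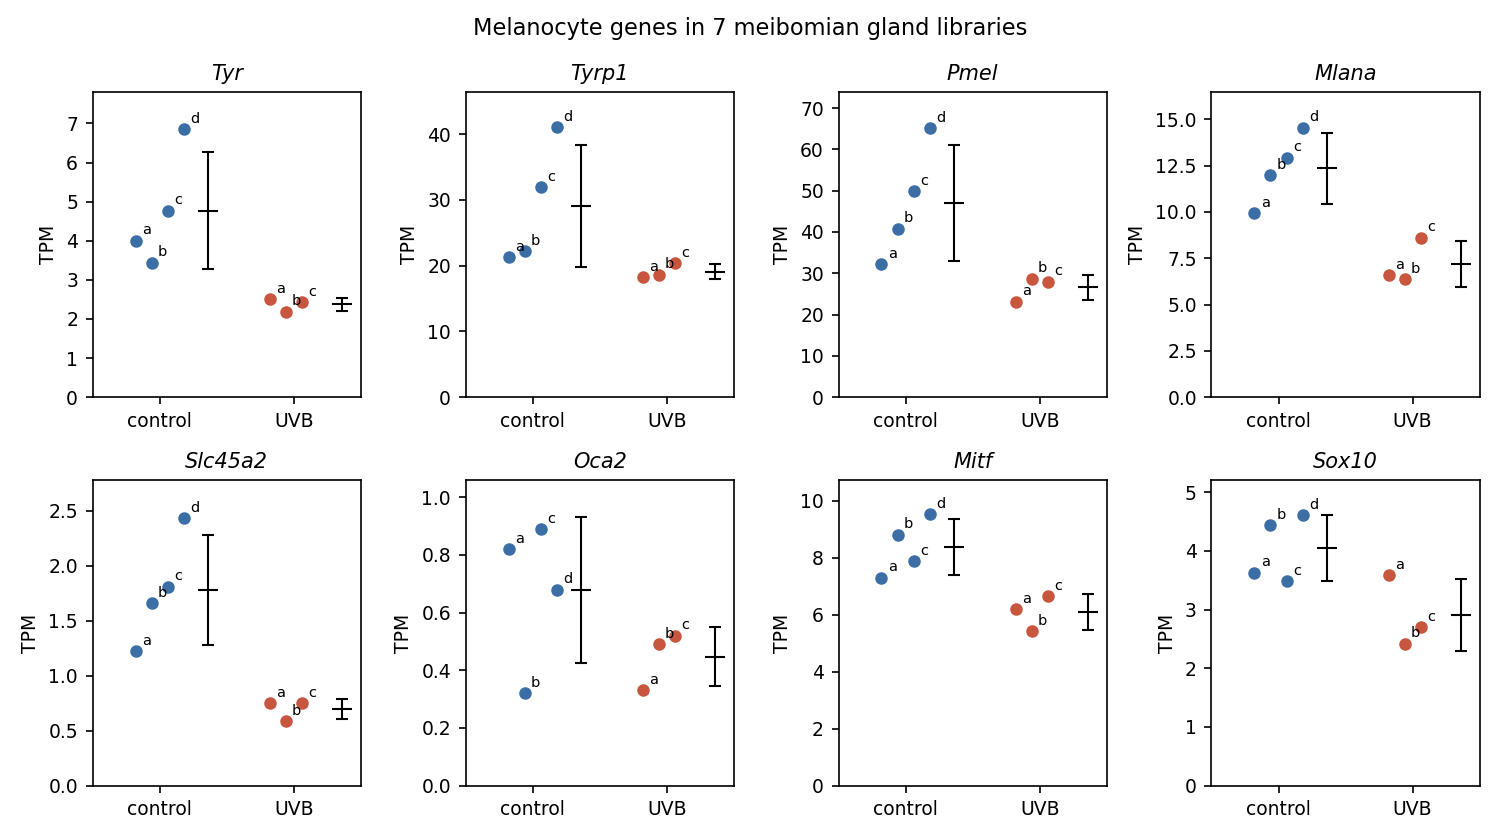
Level of each melanocyte gene (y axis, TPM) in the control and UVB groups (x axis). Each point is a library marked with its letter, and the bar beside the points is the mean ± SD. The UVB libraries sit below every control in 6 panels, and overlap with controls in those of Oca2 and Sox10.

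Pmel, Tyrp1 and Mlana were the most abundant of the 8. Levels are given as TPM, which corrects for gene length and so allows genes to be compared. Pmel measured 32.25, 40.79, 49.89 and 65.07 TPM in control a to d, and 23.12, 28.70 and 28.00 TPM in UVB a to c. The highest UVB library was under the lowest control, control a. At -0.85 on the log2 scale (SE 0.23), the difference had an edgeR adjusted p of 0.0509, just outside the threshold of 0.05, and DESeq2 called it (adjusted p = 0.00104). It was also called by limma-voom (0.0491), in edgeR over genes with a mean count of at least 50 (0.0451) and in edgeR without control a (0.0201). In GRCr8, Pmel overlaps Cdk2 and Dgka. How strand was handled is not given in the sources used here, so its reads may include theirs. Those neighbours measured log2 fold changes of -0.045 and -0.044, with SE 0.064 and 0.089.

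Tyrp1, the enzyme that helps turn intermediates into brown-black melanin, came next in abundance. It measured 21.27, 22.19, 31.88 and 41.02 TPM in control a to d and 18.27, 18.63 and 20.39 TPM in UVB a to c. The groups did not overlap, but the gap between UVB c and control a was narrow. Its log2 fold change of -0.61 (SE 0.23) did not pass in edgeR (adjusted p = 0.118), though it did in DESeq2 (0.0272). Control c and d lay well above control a and b, and without control d the value was -0.39.

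Tyr, the first enzyme of the pathway, fell to about the same level in all UVB libraries. It measured 4.00, 3.44, 4.77 and 6.86 TPM in control a to d, and 2.51, 2.19 and 2.43 TPM in UVB a to c. Controls spread widely, with 6.86 TPM in control d, while the UVB libraries had an SD of 0.167 TPM. Tyr fell by 1.01 on the log2 scale, with an SE of 0.23 and an edgeR adjusted p of 0.0226. It was no longer called without control c (adjusted p = 0.0564), or without UVB a (0.0568), UVB b (0.0739) or UVB c (0.0589). The value stayed between -1.14 and -0.78 over the fits that left out a library. In GRCr8, uncharacterised loci overlap Tyr and Tyrp1, so reads from them cannot be told apart from these genes without strand.

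Mlana encodes melan-A, a small melanosome protein that works with Pmel. It measured 9.94, 11.97, 12.92 and 14.54 TPM in control a to d and 6.57, 6.37 and 8.61 TPM in UVB a to c. The groups were separate, and UVB c was the closest to the controls. Mlana fell by 0.79 on the log2 scale, with an SE of 0.19 and an edgeR adjusted p of 0.0293. It was not called without control b, c or d, or without UVB a or b, with adjusted p up to 0.0890 and values from -0.80 to -0.69 in those fits.

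The transporter gene Slc45a2 had the steepest measured fall. It stood at 1.22, 1.66, 1.81 and 2.43 TPM in control a to d and at 0.75, 0.59 and 0.75 TPM in UVB a to c, from 20 to 25 counts in each UVB library and 34 to 74 in each control. All UVB libraries were at 33.1% to 42.1% of the control mean, under the lowest control at 68.5%. Slc45a2 fell by 1.36 on the log2 scale, with an SE of 0.28 and an edgeR adjusted p of 0.0169. Of the 4 calls it was the steadiest, lost only without UVB b (-1.26, adjusted p = 0.0554) among its 16 alternatives.

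Oca2, a melanosomal membrane protein gene that sets the organelle's acidity, was the scarcest, with 11 to 41 counts in a library. It measured 0.82, 0.32, 0.89 and 0.68 TPM in control a to d and 0.33, 0.49 and 0.52 TPM in UVB a to c. Control b was as low as UVB a, so the groups overlapped. Its log2 fold change of -0.59 carried an SE of 0.38 (edgeR adjusted p = 0.328) and no difference was detectable at this depth. Pseudogenes overlap Oca2 in GRCr8, and reads from them cannot be told apart.

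Of the regulators, Mitf fell and Sox10 did not pass. Mitf, the master regulator of the lineage, measured 7.31, 8.82, 7.90 and 9.54 TPM in control a to d and 6.21, 5.43 and 6.66 TPM in UVB a to c. Every UVB library was lower than every control. Mitf fell by 0.46 on the log2 scale, with an SE of 0.11 and an edgeR adjusted p of 0.0273. The call was lost without control b or d or UVB a or b, and in the fits on log2 TPM (adjusted p up to 0.0887). Mitf has several promoters and is also used by mast cells and macrophages, and a value per gene does not separate these forms.

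Sox10, which is shared by melanocytes and the Schwann cells of nerves, measured 3.63, 4.44, 3.49 and 4.61 TPM in control a to d and 3.59, 2.42 and 2.70 TPM in UVB a to c. UVB a lay among the controls, so the groups overlapped. Its log2 fold change of -0.49 (SE 0.18) did not pass in edgeR (adjusted p = 0.0995) or in any alternative.

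The exact two-sided permutation test on each gene alone, over the 35 ways to assign 7 libraries to groups of 4 and 3, gave p = 0.0286 for Mlana, Mitf and Slc45a2, the smallest that it can give. It gave 0.0571 for Tyr and Pmel, 0.0857 for Sox10, 0.114 for Tyrp1 and 0.314 for Oca2. These are unadjusted values.

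In the controls the order of levels was Pmel, Tyrp1, Mlana, Mitf, Tyr, Sox10, Slc45a2 and Oca2, from 47.0 ± 14.0 TPM (SD, n = 4) to 0.678 ± 0.254 TPM. The ranges over controls overlapped for Pmel and Tyrp1, and for Tyr and Sox10. The other neighbours were separate in every control. After UVB the order was kept except that Sox10 (2.90 ± 0.611 TPM, SD, n = 3) stood above Tyr (2.38 ± 0.167 TPM), a pair whose ranges overlapped, as did those of Mlana and Mitf.

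The genes were also compared with Mitf inside each library, as the log2 ratio of CPM. This comparison was chosen after the values were seen, and covers 7 ratios with unadjusted p-values. Mast cells and macrophages also use Mitf, so in bulk tissue these ratios are not levels per melanocyte. Slc45a2 was lower relative to Mitf after UVB, by -0.87 (exact two-sided permutation p = 0.0286), and so was Mlana, by -0.33 (exact permutation p = 0.0286). For Tyr the ratio moved by -0.51 (exact permutation p = 0.114) and for Pmel by -0.36 (exact permutation p = 0.229), within the spread of the libraries. Tyrp1 (-0.11), Oca2 (-0.071) and Sox10 (-0.041) had exact permutation p-values of 0.657, 0.943 and 0.771.

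Other melanosome genes were read from a list of 16, which also holds Pmel and Mlana. Of the 14 that were tested, 3 fell and 1 rose, against 6.74% and 6.30% of all genes, and the median log2 fold change was -0.40. Besides Mlana, the falls were those of Gpr143 and Trpm1. Gpr143, the ocular albinism receptor of the melanosome membrane, measured 1.21, 1.22, 1.65 and 2.31 TPM in control a to d and 0.53, 0.75 and 0.72 TPM in UVB a to c. All UVB libraries were below all controls (log2 fold change -1.25, SE 0.33, edgeR adjusted p = 0.0355). Trpm1, an ion channel of melanocytes and the retina, fell by 0.81 on the log2 scale (SE 0.21, edgeR adjusted p = 0.0365). Both calls were lost when control c, control d, UVB a or UVB b was left out, and no gene of the list was called lower without control c, control d or UVB b. Slc24a5, the melanosomal cation exchanger, was below every control in all UVB libraries without passing (-0.66, SE 0.24, edgeR adjusted p = 0.104).

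The list was not uniform, with 11 of its 14 tested genes below 0 and 3 above. Rab32, a small GTPase of melanosome and lysosome-related traffic, rose (log2 fold change 0.86, SE 0.19, edgeR adjusted p = 0.0189), a call lost without control c, control d or UVB c. Cd63 (0.18), Rab38 (-0.033) and Gpnmb (-0.42) did not pass, with edgeR adjusted p-values of 0.203, 0.823 and 0.408. The sign of Rab38 turned without control d or UVB c. The cystine carrier gene Slc7a11 was at 0.94 (SE 0.29, edgeR adjusted p = 0.0683).

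The machinery that builds and moves melanosomes, shared with lysosomes of all cells, was near the background. Of 21 tested genes of a list of 22, 1 fell and 1 rose, where 6.74% and 6.30% of all genes tested did, and the median log2 fold change was -0.070. The one that fell was Rab27a, the GTPase that ties melanosomes and secretory granules to the cytoskeleton. It measured 46.51, 62.55, 51.82 and 55.42 TPM in control a to d and 40.22, 27.64 and 28.75 TPM in UVB a to c (log2 fold change -0.76, SE 0.14, edgeR adjusted p = 0.0132). Its motor partner Myo5a rose, from 5.21 ± 0.613 TPM (SD, n = 4) to 8.51 ± 1.65 TPM (SD, n = 3) (log2 fold change 0.68, SE 0.14, edgeR adjusted p = 0.0173), a call lost without control c, UVB a or UVB c. Mlph, the linker between them, was at -0.41 (SE 0.16, edgeR adjusted p = 0.126). The most abundant of the list, Mreg, Bloc1s1 and Hps1, had log2 fold changes from -0.18 to 0.028 and did not pass.

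**Figure D2:**
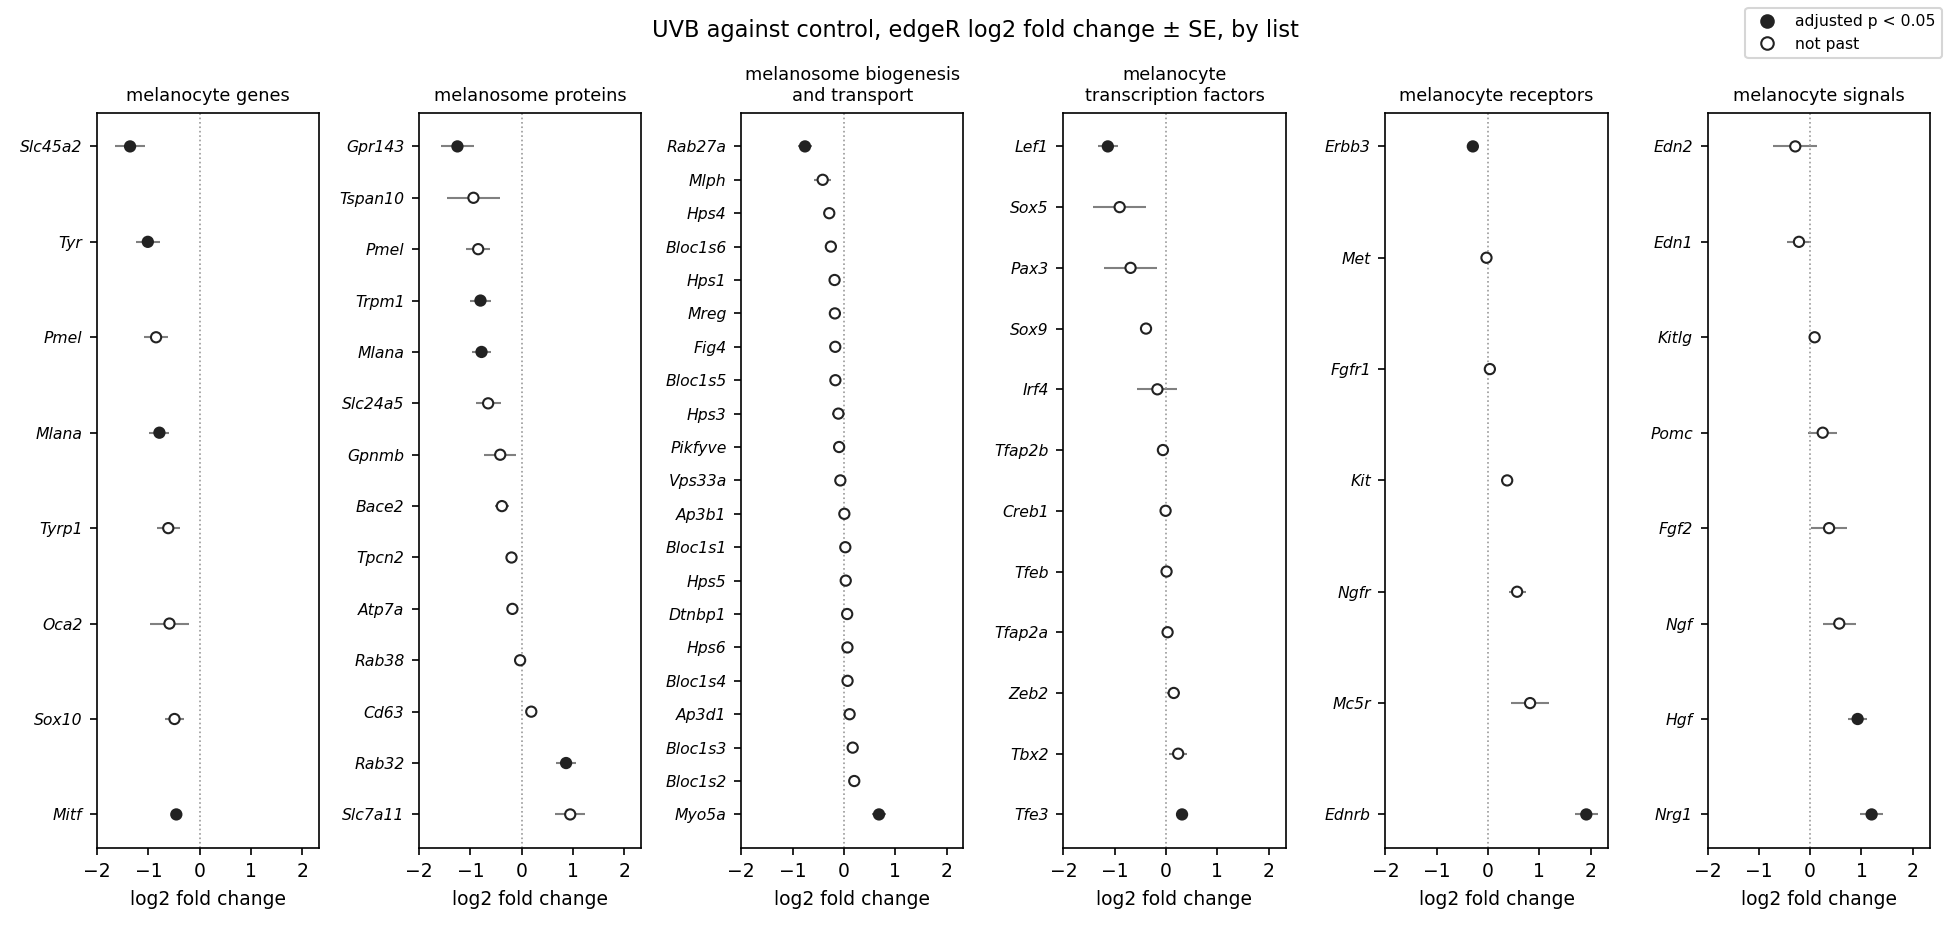
Log2 fold change of UVB against control (x axis, edgeR, bar = SE) for each tested gene of 6 lists (y axis). Filled points had an adjusted p under 0.05. All 8 melanocyte genes lie left of 0, while the transport list clusters around 0 with Rab27a and Myo5a at its ends.

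Among signals that skin cells send to melanocytes, Nrg1 and Hgf rose. Of 12 listed ligands, 8 were tested, and in edgeR 2 rose and 0 fell, where 6.30% and 6.74% of all genes tested did. At an unadjusted p under 0.05 also 0 were lower, and DESeq2 called the same numbers of rises and falls. Nrg1, a ligand of ERBB receptors, measured 1.32, 1.07, 1.11 and 1.72 TPM in control a to d and 2.94, 2.16 and 3.43 TPM in UVB a to c (log2 fold change 1.20, SE 0.23, edgeR adjusted p = 0.0122). Hgf, the ligand of the receptor Met, measured 1.32, 1.72, 2.02 and 1.65 TPM against 3.67, 3.24 and 2.74 TPM (0.92, SE 0.19, edgeR adjusted p = 0.0144). In both, every UVB library was above every control, and both calls held in each fit that left out a library. Kitlg, the stem cell factor that keeps melanocytes alive, stood at 15.3 ± 1.24 TPM (SD, n = 4) and 16.4 ± 1.57 TPM (SD, n = 3) and was not called (0.087, SE 0.088, edgeR adjusted p = 0.550). The endothelin gene Edn1 (-0.22, SE 0.23) and Pomc, which encodes the precursor of melanocyte-stimulating hormone (0.24, SE 0.28), had adjusted p-values of 0.557 and 0.610 in edgeR. Pomc had 13 to 28 counts in a library, so a small change would not be seen.

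Among 7 receptors listed with melanocytes, all tested, 1 rose and 1 fell, where 6.30% and 6.74% of all genes tested did. Not all of them are particular to these cells. Ednrb, the endothelin receptor that melanocyte precursors need, rose strongly. It measured 4.93, 3.05, 5.14 and 5.99 TPM in control a to d and 18.69, 13.56 and 22.25 TPM in UVB a to c, with no overlap (log2 fold change 1.91, SE 0.23, edgeR adjusted p = 0.00321). The call held without each library in turn (1.74 to 2.08). Blood vessels and other cells also make Ednrb, and its direction was the opposite of that of the 8 melanocyte genes. Kit, the receptor for Kitlg, was above every control in all UVB libraries (21.09 to 24.94 against 15.06 to 20.88 TPM) without passing in edgeR (0.37, SE 0.12, adjusted p = 0.0693), and it passed in DESeq2 and without control b. Erbb3 fell slightly (-0.30, SE 0.068, edgeR adjusted p = 0.0225), lost without control c, control d, UVB a or UVB b. Its control mean was 55.2 TPM, against 4.04 TPM for Sox10, and which cells gave it was not tested. Mc5r, the melanocortin receptor of sebaceous glands, ranged from 13.17 to 36.23 TPM in controls and from 36.90 to 66.07 TPM after UVB (log2 fold change 0.82, SE 0.37, edgeR adjusted p = 0.192).

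**Figure D3:**
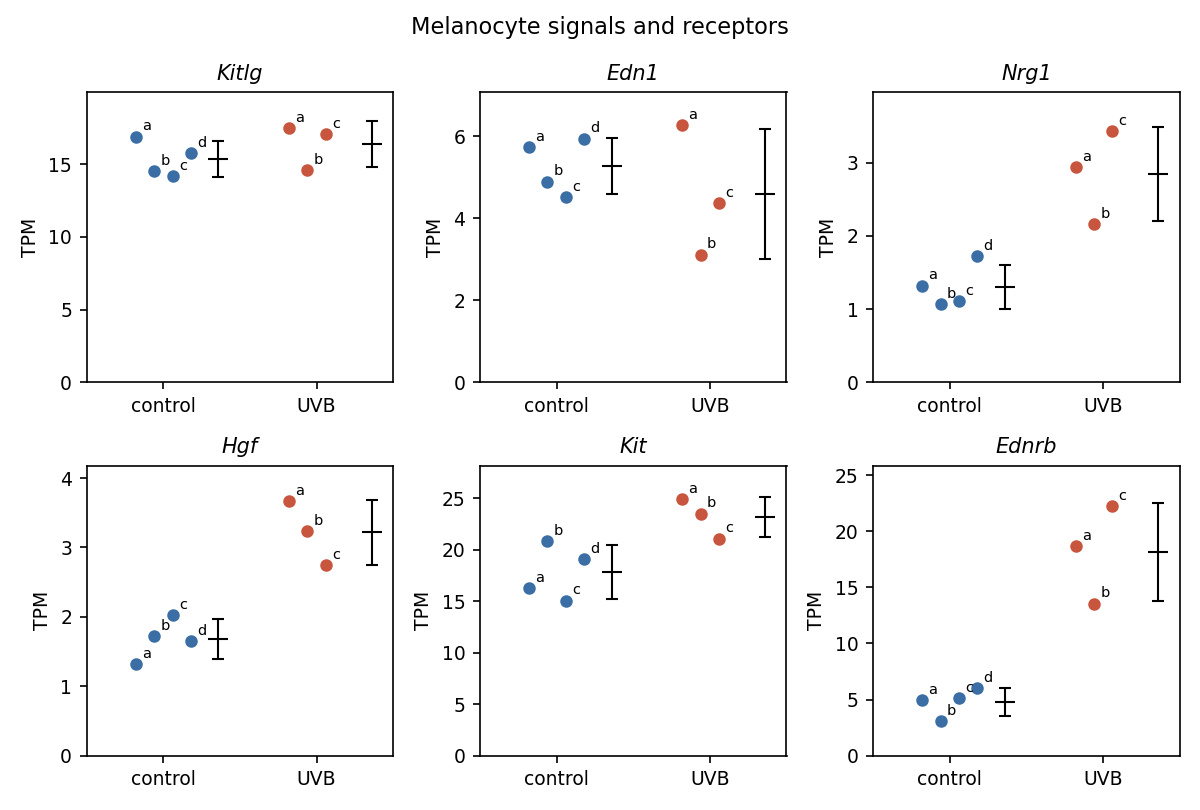
Level (y axis, TPM) of 4 ligands and of the receptors Kit and Ednrb in the control and UVB groups (x axis). Points are libraries with their letters, and the bar beside them is the mean ± SD. Nrg1, Hgf, Kit and Ednrb lie above every control in all UVB libraries, and Kitlg and Edn1 overlap.

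Of 14 transcription factors that act with Mitf and Sox10, 12 were tested. In edgeR 1 rose and 1 fell, where 6.30% and 6.74% of all genes tested did. The list had a median log2 fold change of -0.034. Lef1, which carries WNT signals in melanocytes and in the hair bulb, measured 3.50, 2.54, 3.58 and 3.72 TPM in control a to d and 1.64, 1.16 and 1.61 TPM in UVB a to c. No UVB library reached a control (log2 fold change -1.13, SE 0.20, edgeR adjusted p = 0.00933), and the call held without each library in turn. Tfe3, a relative of Mitf found in most cells, rose by little (0.31, SE 0.082, edgeR adjusted p = 0.0355), a call lost in 5 of the 7 fits that left out a library (without control b, c or d, or UVB b or c). The neural crest factor Pax3 had 6 to 26 counts in a library and a log2 fold change of -0.69 with an SE of 0.52 (edgeR adjusted p = 0.412).

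Hair follicle and Schwann cell markers were also lower as lists after UVB, while mast cell markers were higher. The part of these cells in the result was not tested. Summed over the 8 genes, the melanocyte level was 80.44 to 144.8 TPM in controls and 61.35 to 70.06 TPM after UVB. Hair follicle markers, mostly keratins of the inner root sheath and hair shaft, summed to 1085 to 1369 TPM in controls and to 463.3, 388.2 and 1050 TPM in UVB a to c. All 13 tested markers of a list of 14 were below 0 (median log2 fold change -0.96). Of these, 4 were called lower, Msx2, Krt35, Krt85 and Hoxc13, where 6.74% of all genes tested were. The number called was 13 without UVB c, 0 without UVB a and 0 without control d. UVB c held 87.4% of the control mean of the hair list, just under the lowest control at 90.3%, and 64.8% of that of the melanocyte sum. Single melanocyte genes in UVB c ran from 42.1% (Slc45a2) to 79.4% (Mitf) of their control means.

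Schwann cell markers are a list of 15 that shares Sox10 with the 8 genes and Erbb3 with the receptors above. They summed to 270.0 to 305.0 TPM in controls and 196.0 to 223.0 TPM after UVB. Egr2 (59.8 TPM) and Erbb3 (55.2 TPM) had the highest control means of the list. All 13 that were tested were below 0 (median -0.49). In edgeR 4 were called lower, among them Egr2, S100b and Erbb3, where 6.74% of all genes tested were. S100b is also made by melanocytes and Egr2 by hair follicle and immune cells. Of the UVB libraries, the Schwann sum was lowest in UVB b, as were Sox10, Tyr, Mlana, Mitf and Slc45a2, while Tyrp1, Pmel and Oca2 were lowest in UVB a.

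Mast cells use both Kit and Mitf. Their list of 11 summed to 32.22 to 45.66 TPM in controls and 53.89 to 65.18 TPM after UVB. Of 9 tested markers, 3 rose, Tpsab1, Hdc and Cpa3, and none fell, where 6.30% and 6.74% of all genes tested did. The call of Cpa3 was lost without control b, control c or UVB c. Macrophage markers summed to 188.2 to 513.2 TPM in controls and 228.5 to 372.1 TPM after UVB, and the sums overlapped. Lyz2 made up much of the highest sum, with 338.64 TPM in control b and 85.72 to 143.85 TPM in the other controls. Of 10 macrophage markers, 5 rose (Cd163, Mrc1, C1qb, C1qc and Cd14) and none was called lower, against 6.30% and 6.74% of all genes tested. The others did not pass, with Lyz2 (-0.77), Cd68 (-0.41) and Csf1r (-0.0093) below 0 and C1qa (0.85) and Adgre1 (0.11) above. The number that rose was 3 in each fit that left out control a, control c, control d, UVB a or UVB c, and 1 marker was called lower without control a. Markers of the pigmented layer of the retina, which would bring the same pigment genes, were read too. Rpe65 had 1 to 4 counts, Rlbp1 at most 2, and Rgr and Ttr at most 1 in any library. Lrat had 58 to 169 counts and alone of that list was tested (log2 fold change 0.78, SE 0.27, edgeR adjusted p = 0.0923). Best1 and Otx2 were not analysed here, and a share of retina in the glands was not tested.

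The tissue label was checked on meibocyte markers, which were high in every library. Awat2, a wax ester enzyme, measured 10767.17 to 12062.08 TPM in controls and 6961.10 to 7744.24 TPM after UVB, and fell by 0.66 on the log2 scale (SE 0.093, edgeR adjusted p = 0.00453). Meibocyte markers as a list had 2 of 9 lower and 0 higher in edgeR (Awat2 and Plin2, median -0.040). Of all genes tested, 6.74% were called lower and 6.30% higher. Keratinocyte markers had 2 of 9 higher and 0 lower (Krt14 and Dsg3, median 0.067), against the same shares of all genes. Krt5 was at -0.022 (edgeR adjusted p = 0.922, of either sign over the fits that left out a library).

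**Figure D4:**
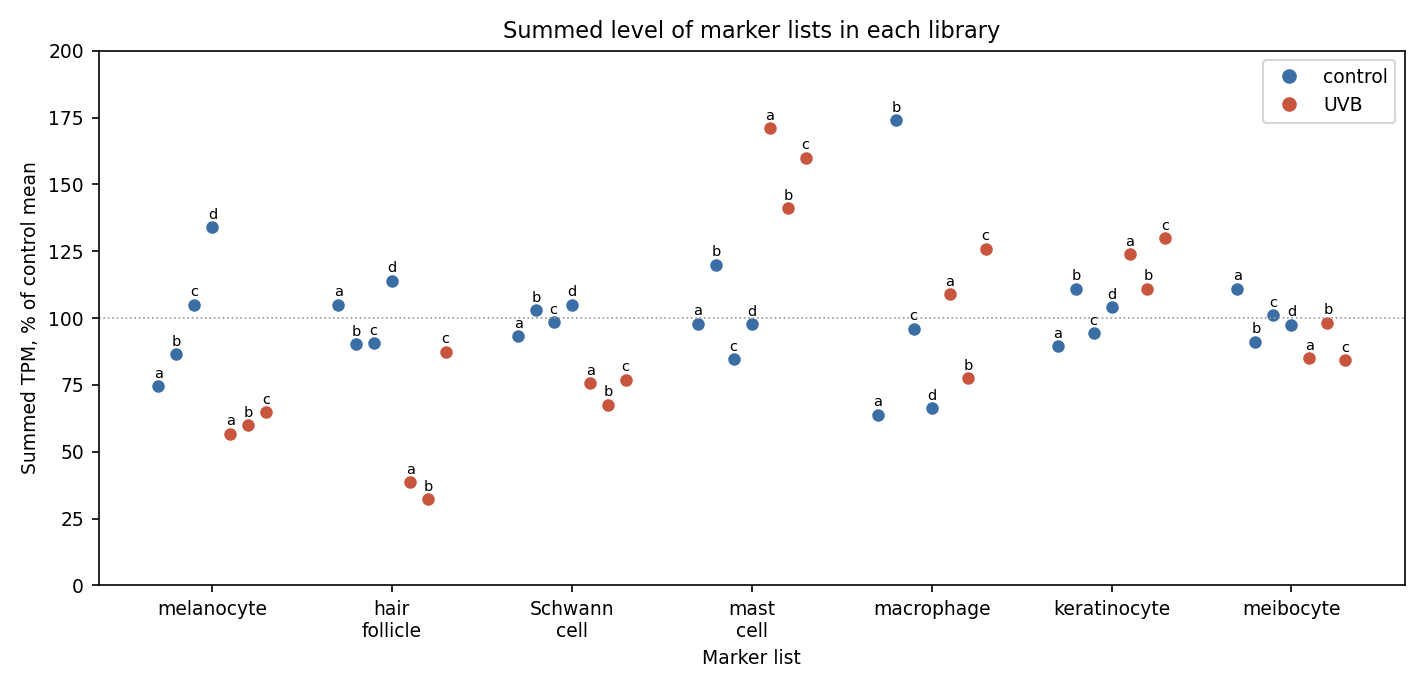
Summed TPM of 7 marker lists (x axis) in each library, as percent of the mean of the controls (y axis). Points are libraries with their letters. The melanocyte, Schwann cell and hair follicle lists are below every control in all UVB libraries, the hair follicle list by a narrow margin in UVB c, and the mast cell list is above every control in all UVB libraries.

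The genes whose pattern over the 7 libraries was most like that of each melanocyte gene were found by Pearson's correlation of log2 CPM among 11967 candidates. They are given as a description, since the highest of so many values is high in any data and the points share the difference between groups. The closest for Mlana were Nfe2l3 (r = 0.996) and Otud7b (0.994), for Slc45a2 Neo1 (0.994, as was Pdzk1ip1), for Mitf G4 (0.991) and Bles03 (0.990), and for Pmel Nr1h3 (0.981) and AABR07019383.1 (0.981). For Tyr they were Smg6 (0.974) and Gstm5 (0.965), for Tyrp1 Cish (0.966) and Dgkh (0.957), for Sox10 Gng12 (0.984) and Syt9 (0.982), and for Oca2 Arih1 (0.980) and Tmem51 (0.970).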

How the data were processed

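RNA sequencing of 7 libraries was analysed from the authors' deposited tables of expected counts (estimated counts per gene, called raw by the authors, 12.5% of values not whole) and of TPM (summing to 82.0% to 84.1% of the full TPM scale in each library). Per the submitters' processing notes, FastQC, Trimmomatic, DRAGEN, Picard and the build rn7 were used. The counter, annotation and strand are not given in the sources used here. Values were read from the right end of each row, since commas in gene names shift cells, and 5 rows without a value were dropped. Counts of all 8 genes were whole. Totals ran from 20680237 to 28784941 counts. No 2 libraries of a group agreed within sampling noise (chi-square per degree of freedom at least 11.0 over 9 pairs).

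Counts were rounded and fitted in edgeR 4.0.16 (R 4.3.3; quasi-likelihood, robust, TMM, filterByExpr), with Benjamini-Hochberg adjustment over 13709 genes and a threshold of 0.05. The SE is the absolute log2 fold change over the root of F. Single genes were tested by exact permutation of log2(CPM + 0.1). Alternatives used DESeq2 1.42.0, limma-voom and limma 3.58.1 on TPM, other scalings and filters, and each library left out. The fit was tested on simulated data. Named genes were the 10 listed, up to 4 called and the 3 most abundant of each list, and the 2 most similar genes to each, with Awat2, Krt14 and Scd; other list genes were named, and the ratios to Mitf and the promoter search added, after values were seen. Of 158 listed symbols, 12 were not analysed here. The members and lists were chosen with earlier results of these data known. A result that needs a withheld item is not reported here.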

Additional observations from a re-analysis of the deposited data

How the results depend on the processing

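No paired analysis was possible because table headers and labels share no numbering of replicates. The count of genes past the threshold was 1787 (863 higher, 924 lower). It stayed within 1.5 times under DESeq2 (2451), limma-voom, other scalings, other count filters, unrounded counts (chosen after seeing the data) and TPM, except that log2(TPM + 1) without a filter gave 571 lower. Leaving out each library gave 851 to 1898 genes, 421 to 927 higher and 430 to 971 lower, and the cause was not tested. The 8 melanocyte genes kept values below 0 wherever they were tested, with medians from -0.81 to -0.61. The number called lower was 4 in the reported fit, 6 under DESeq2, 5 under limma-voom, 2 under log2(TPM + 1) without a filter, and 0 (without UVB b) to 5 (without control a). Signs turned for genes near 0 when a library was left out: Fgfr1 (-0.030 to 0.098), Tfap2a (-0.0055 to 0.074), Tfeb (-0.044 to 0.074), Rab38 (-0.091 to 0.021), Bloc1s1 (-0.042 to 0.11), Gch1 (-0.044 to 0.29), Krt5 (-0.083 to 0.036) and Scd (-0.15 to 0.031). Arih1 turned to 0.0017 under log2(TPM + 1), filtered or not, and 0.0018 under log2(TPM + 0.1). With 4 and 3 libraries, and 11 to 41 counts in a library for Oca2, small changes could be missed.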

Other observations

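Of 6 listed genes that act on the substrate of melanin or on its intermediates, 3 were tested and 2 rose, where 6.30% of all genes tested rose. Leaving out a library other than control a left 1 call. Mif, a cytokine that is also a tautomerase, measured 229 to 270 TPM in controls and 335 to 370 TPM after UVB, with every UVB library above every control (log2 fold change 0.51, SE 0.078, edgeR adjusted p = 0.00607). Qdpr, which recycles the cofactor of the hydroxylase that makes tyrosine, rose as well (0.26, SE 0.064, edgeR adjusted p = 0.0297), and lost its call in every fit that left out a library except the fit without control a. Gch1, the first enzyme of that cofactor's synthesis, did not pass (0.098, SE 0.23, edgeR adjusted p = 0.817), and its sign turned in 2 of the fits that left out a library. These genes are used by many cells of the gland.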
